A study of Mus musculus with 6 samples.

Results

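The transcripts of 8 mouse interleukin genes were followed in primary CD4+ T cells before and after restimulation of the T cell receptor: Il10, Il24 and Il22 of the interleukin 10 family, Il17a and Il17f of the interleukin 17 family, Il21, Il6 and Il16. The genes were chosen by name and looked up by Ensembl identifier through GENCODE M21, and all 8 were found among the 48440 genes of the deposited count table. RNA sequencing covered 6 libraries in 2 groups of 3. All cells came from spleen and lymph nodes of wildtype mice, were first activated for 3 days on plates coated with antibodies against CD3 and CD28, and were then expanded for 5 days in interleukin 2 without antibody. The unstimulated group was rested after that, and the stimulated group received anti-CD3/CD28 again for 4 hours. Both groups are therefore previously activated T cells grown in interleukin 2, not naive cells, and the labels name no further polarizing cytokines and do not say whether mice were pooled. Each library held between 29897720 and 30252923 counted reads, so that 3 reads correspond to between 0.0943 and 0.1063 CPM (the count per library, scaled by edgeR's TMM factors), depending on the library.

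As background, cytokines of helper T cells are made on demand: the genes are silent or nearly so at rest, and signals from the T cell receptor and CD28 act on them through NFAT, AP-1 and NF-kB. Which cytokine a cell makes depends on its lineage factors, among them Bcl6 and Maf for interleukin 21 in follicular helper cells, and Maf, Blimp-1 (Prdm1) and Bhlhe40 for the choice to make or withhold interleukin 10. Interleukin 16 is a different kind of cytokine: it is stored as a precursor in resting lymphocytes, released by cleavage and bound by CD4.

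RefSeq promoter entries (GRCm38.p6) were found for 6 of the 8 genes, and Il24 and Il10 had none. The 250 bases before the transcription start are shown for 4 genes that rose and for Il16, which fell, because these are the stretches in which the receptor-driven factors would be looked for. Il16 has several annotated starts; the one shown is also the start of a GENCODE transcript, and the counts, made per gene, do not tell which start was used. Capitals mark every match, on either strand, to 4 of the motifs searched: GGAAA for NFAT, TGANTCA for AP-1, GGG and CC with any 5 bases between for NF-kB, and AGGTCA for ROR.
Il17a, chr1:20730655-20730904, plus strand: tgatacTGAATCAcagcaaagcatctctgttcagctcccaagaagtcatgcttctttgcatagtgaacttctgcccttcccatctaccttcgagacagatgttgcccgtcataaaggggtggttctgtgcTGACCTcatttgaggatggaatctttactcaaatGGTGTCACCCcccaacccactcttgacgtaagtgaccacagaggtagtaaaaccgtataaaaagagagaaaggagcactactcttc
Il17f, chr1:20784271-20784520, minus strand: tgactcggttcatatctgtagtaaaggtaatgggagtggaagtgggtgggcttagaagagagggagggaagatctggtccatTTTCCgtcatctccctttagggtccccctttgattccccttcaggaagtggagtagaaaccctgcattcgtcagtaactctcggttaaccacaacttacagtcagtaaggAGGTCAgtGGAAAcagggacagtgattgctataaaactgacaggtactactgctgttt
Il21, chr3:37232637-37232886, minus strand: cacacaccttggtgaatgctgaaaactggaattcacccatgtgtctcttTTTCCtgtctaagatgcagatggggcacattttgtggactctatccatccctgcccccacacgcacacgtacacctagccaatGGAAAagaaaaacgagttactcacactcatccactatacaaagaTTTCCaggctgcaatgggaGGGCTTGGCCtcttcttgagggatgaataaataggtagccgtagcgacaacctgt
Il6, chr5:30012864-30013113, plus strand: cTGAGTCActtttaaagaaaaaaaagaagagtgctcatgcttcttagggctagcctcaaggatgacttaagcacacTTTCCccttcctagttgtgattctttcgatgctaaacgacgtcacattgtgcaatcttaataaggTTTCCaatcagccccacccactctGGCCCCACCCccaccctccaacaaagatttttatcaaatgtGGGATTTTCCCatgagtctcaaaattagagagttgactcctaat
Il16, chr7:83655496-83655745, minus strand: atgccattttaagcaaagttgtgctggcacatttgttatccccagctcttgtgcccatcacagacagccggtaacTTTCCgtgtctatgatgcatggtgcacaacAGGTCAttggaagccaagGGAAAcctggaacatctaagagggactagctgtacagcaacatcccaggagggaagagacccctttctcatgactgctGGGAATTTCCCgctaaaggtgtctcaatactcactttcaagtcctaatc

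Counted from the start site, the Il17a stretch held 1 AP-1 match beginning at base -244, 1 ROR match on the minus strand at -120 and 1 NF-kB match at -86, and no NFAT match. Il17f held NFAT matches at -168 and -50 and an ROR match at -58, so that an ROR match was present in both interleukin 17 genes. Il21 held 3 NFAT matches, at -201, -118 and -74, and 1 NF-kB match at -55. Il6 held an AP-1 match at -249, NFAT matches at -174, -109 and -39, and NF-kB matches at -85, -44 and -43, of which the last pair overlap each other and the NFAT match at -39. The Il16 stretch shown, although the transcript fell, held NFAT matches at -175, -127 and -44, an ROR match at -145 and a pair of NF-kB matches at -49 and -48, which overlap each other and the NFAT match at -44. Of the other Il16 starts in RefSeq, the one at base 83732398 had 1 NFAT match, and the one at 83735539 had an NFAT match, an AP-1 match and an NF-kB match but no ROR match. In Il22 the single match was to NFAT, at -236. TTCNNNGAA, the STAT motif, had no match in any of these stretches, nor in the 50 bases after the start, which were searched too.

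Such matches are common. Of 32851 RefSeq promoter windows, which run from 250 bases before to 50 bases after a start, 61.3% held the NFAT letters, 50.8% the NF-kB letters, 16.3% the ROR letters, 8.30% the STAT letters and 7.81% the AP-1 letters. Matches describe the sequence and are not evidence of binding.

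After 4 hours of stimulation, 6 of the 8 interleukin transcripts rose, Il16 fell, and Il22 had too few reads to be tested. The rises ran from 21.1-fold for Il6 to 103.6-fold for Il24 where a fold could be fitted against reads at rest, and Il17a, with no read at rest, rose by at least 74.2-fold against a floor of 3 reads over the group. Il16 fell by 4.59-fold. These calls use edgeR's quasi-likelihood test over 13314 genes with Benjamini-Hochberg adjustment at 0.05. Against that, 38.4% of all tested genes rose and 39.1% fell, so a call alone says little in this comparison, in which most genes moved. By size of change, the median log2 change of the 7 tested interleukins was 4.78, beside -0.04 over all tested genes. Il24, Il10, Il17a, Il17f and Il6 passed the filter on low counts only through their stimulated libraries. For these a rise was needed to be tested at all, and the genes were chosen with earlier results of these data known. The median and the counts that follow therefore describe these genes and are no test of them as a set. All 7 also passed edgeR's glmTreat test against a change of at least 1 log2 unit, which 17.4% of genes passed upward and 18.2% downward. In 6 genes every stimulated library lay above every unstimulated one, as in 39.4% of all tested genes, and in Il16 every stimulated library lay below, as in 40.4%. Ordered by log2 change among the 13314 tested genes, Il17a was number 5, Il24 number 42, Il10 number 96, Il17f number 148, Il21 number 187 and Il6 number 189, whereas Il16 was number 12286. The place of Il17a rests on a fitted value over 0 reads at rest, and with limma-voom its log2 change of 7.08 was below that of Il24, 7.68.

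**Figure D1:**
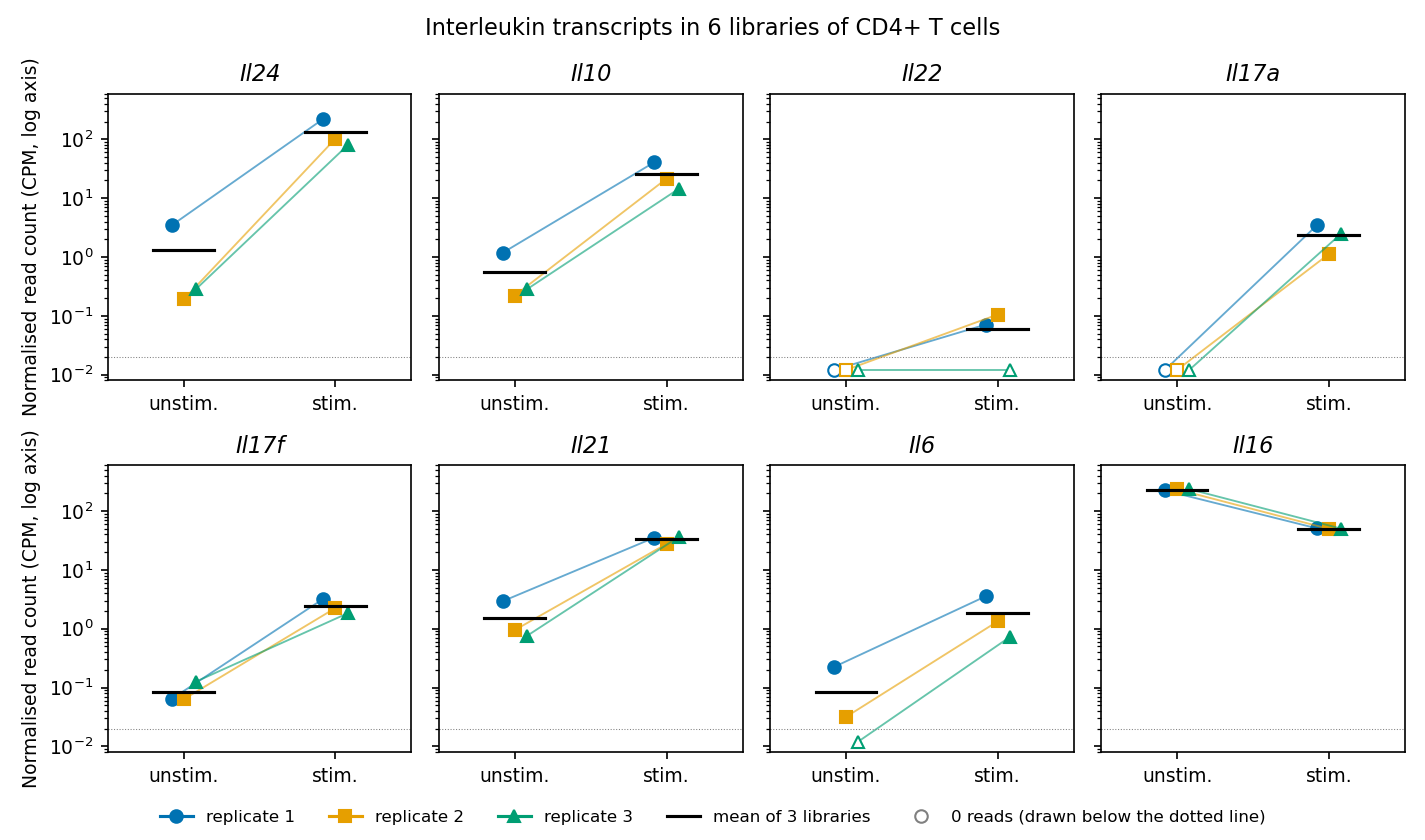
Normalised read counts (CPM, log axis) of the 8 interleukin transcripts in unstimulated and stimulated CD4+ T cells. Points are libraries, lines join libraries with the same replicate number, black bars are means of 3 libraries, and open symbols under the dotted line had 0 reads. Il24, Il10, Il17a, Il17f, Il21 and Il6 lie higher in every stimulated library, Il16 lies lower, and unstimulated replicate 1 is the highest resting library for Il24, Il10, Il21 and Il6.

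**Figure D2:**
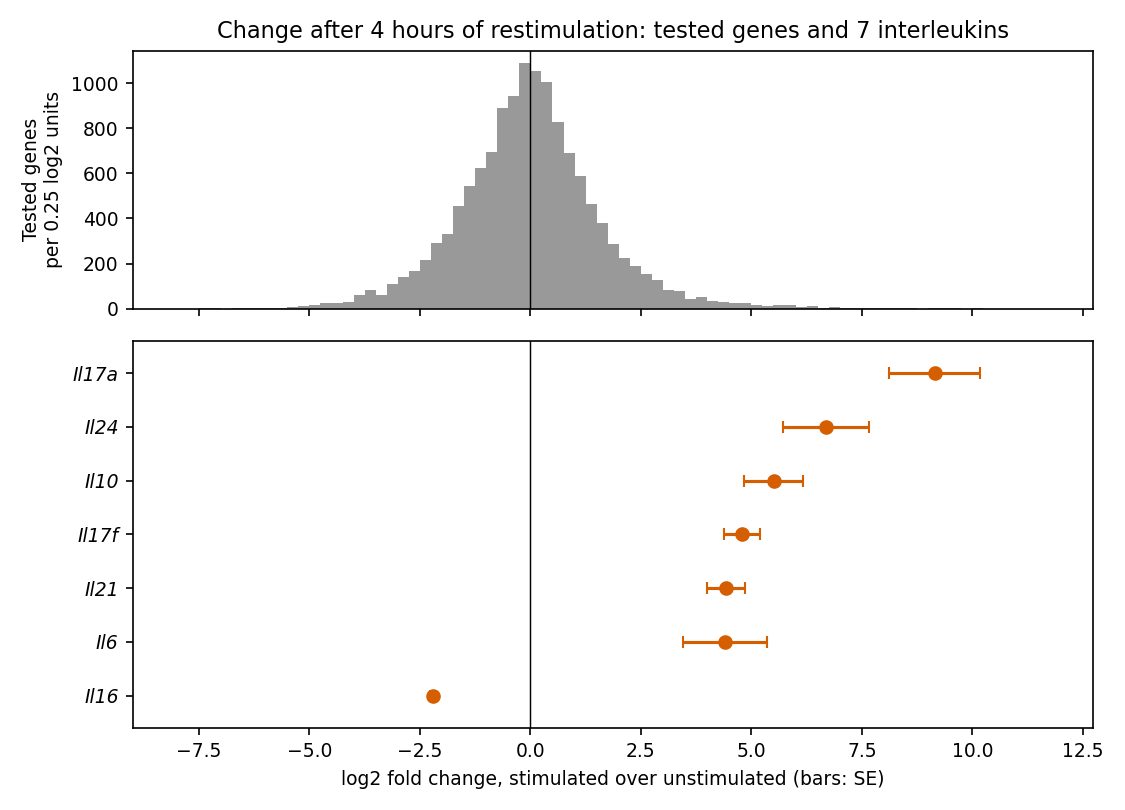
Upper panel: number of tested genes per 0.25 units of log2 fold change, stimulated over unstimulated. Lower panel: the 7 tested interleukins on the same axis, with bars for the SE. The 6 rising interleukins lie between 4.40 and 9.15 and Il16 at -2.20; the value of Il17a is a fitted one with no read at rest and is not a bound.

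Replicate 1 was often the highest library among rising genes, which touches these results. Among 4720 genes that rose and averaged at least 1 CPM on the scaled library totals, 46.9% had their highest resting value in unstimulated replicate 1. For stimulated replicate 1 the share was 38.9%, little above an even split over the 3 libraries. The shares were counted for rising genes only. Between pairs of resting libraries, replicates 1 and 3 varied most and 1 and 2 least, so replicate 1 was not the one furthest from both others. Libraries with the same replicate number also deviated together from their group means. Folds fitted without unstimulated replicate 1 are therefore given beside Il24, Il10, Il21 and Il6. Ranges over all alternatives, for every tested interleukin, are given at the end.

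Il24 encodes a cytokine of the interleukin 10 family that signals through receptors containing interleukin 20 receptor beta. The gene lies at chr1:130882074-130887454 on the minus strand (GRCm38). The unstimulated libraries held 108, 6 and 9 reads (replicates 1 to 3), and the stimulated ones 6284, 2929 and 2302. All 3 stimulated libraries were far above all resting ones, but replicate 1 was the highest in both groups. In CPM the mean went from 1.30 ± 1.85 to 135 ± 76.9 (SD, n = 3 per group), a log2 change of 6.70 (SE 0.98, edgeR adjusted p = 0.00159). The size of this rise depends on unstimulated replicate 1: fitted without that library it was 561-fold, and without stimulated replicate 1 it was 70.2-fold. Within replicate numbers 1, 2 and 3 the ratios were 64.8, 542 and 280.

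Il10 encodes the anti-inflammatory cytokine interleukin 10 and lies 132 kb from Il24, at chr1:131019845-131024974 on the plus strand. Its reads numbered 37, 7 and 9 at rest and 1154, 612 and 418 after stimulation. The order of the libraries was the same as for Il24 in the stimulated group, with replicate 1 above 2 above 3. Mean CPM rose from 0.561 ± 0.535 to 25.6 ± 13.7 (SD, n = 3), a log2 change of 5.51 (SE 0.67, edgeR adjusted p = 0.00028) or 45.4-fold. Without unstimulated replicate 1 the rise was 99.8-fold, and without stimulated replicate 1 it was 32.0-fold. The ratios within replicate numbers were 34.7, 97.1 and 50.9.

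Per kilobase of annotated exon, Il24 was more abundant than its neighbour Il10 in every stimulated library, by 5.15, 4.52 and 5.21 times in replicates 1 to 3 (95% exact binomial intervals 4.83 to 5.49, 4.15 to 4.94 and 4.69 to 5.79). The 3 ratios lie close together although Il24 varied 2.81-fold and Il10 2.84-fold between these libraries. At rest the ratio was 2.76 in replicate 1 (1.88 to 4.12), and in the other two it was 0.81 (0.22 to 2.82) and 0.95 (0.33 to 2.69), where both genes had under 10 reads and no difference was detectable at this depth. These intervals cover counting error only, and the ratios depend on the length used. With the longest protein-coding transcripts they were 6.0 (5.7 to 6.4), 5.3 (4.9 to 5.8) and 6.1 (5.5 to 6.8) in stimulated replicates 1 to 3. At rest they were then 3.2, 0.95 and 1.1.

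Il22 encodes an interleukin 10 family cytokine known for acting on epithelial cells, and lies at chr10:118204942-118210047 on the plus strand. No unstimulated library held a read, and the stimulated ones held 2, 3 and 0. The 5 summed reads have an exact 95% Poisson interval of 1.62 to 11.7, which includes the 3 reads that a group total of 0 allows. Il22 did not pass the filter on low counts, and in the edgeR fit without that filter its adjusted p was 0.094. A change in Il22 was not detectable at this depth. The counts themselves are also uncertain, since reads shared with the near copy Iltifb can be split or dropped in counting.

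Il17a and Il17f encode the interleukin 17 cytokines known for recruiting neutrophils and lie 42.6 kb apart, Il17a at chr1:20730905-20734496 on the plus strand and Il17f at chr1:20777146-20790617 on the minus strand. Il17a had 0 reads in all 3 unstimulated libraries and 97, 32 and 72 in the stimulated ones. It was thus detected in stimulated libraries alone. Mean CPM after stimulation was 2.35 ± 1.16 (SD, n = 3), at least 74.2-fold above the level that 3 reads over the unstimulated group would give (edgeR adjusted p = 0.00021). This floor covers counting at rest only, not the counting error of the stimulated reads.

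Il17f had 2, 2 and 4 reads at rest and 91, 64 and 53 after stimulation. It was low but present in every resting library, and the groups did not overlap. Mean CPM rose from 0.0842 ± 0.0360 to 2.43 ± 0.718 (SD, n = 3), a log2 change of 4.78 (SE 0.41, edgeR adjusted p = 5.2e-06). With so few reads at rest the ratio of summed normalised reads, 28.8, has a 95% counting interval of 14.3 to 67.6. The ratios within replicate numbers were 50.7, 35.5 and 14.5.

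Both interleukin 17 transcripts stayed low after stimulation, and their ratio differed between libraries. Per kilobase of annotated exon, Il17a exceeded Il17f by 1.84 times in stimulated replicate 1 (1.37 to 2.48) and 2.35 times in replicate 3 (1.62 to 3.41), while in replicate 2 the ratio was 0.86 (0.55 to 1.34, 95% exact binomial). The ratios depend on the length used: with the longest protein-coding transcripts they were 1.07 (0.797 to 1.44), 0.503 (0.318 to 0.781) and 1.37 (0.945 to 1.99) in replicates 1 to 3.

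Il21 encodes a cytokine of the common gamma chain family that helps B cells and is known as a product of follicular helper and Th17 cells. It lies at chr3:37222759-37232636 on the minus strand. Reads numbered 92, 30 and 24 at rest and 998, 787 and 1054 after stimulation. Unlike the other rising interleukins, its stimulated libraries lay close together, with the highest 1.31 times the lowest, whereas at rest replicate 1 stood 3.88 times above the lowest. Mean CPM rose from 1.54 ± 1.20 to 33.1 ± 4.77 (SD, n = 3), a log2 change of 4.42 (SE 0.43, edgeR adjusted p = 6.7e-05) or 21.4-fold. Without unstimulated replicate 1 the rise was 38.8-fold.

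Il6 encodes interleukin 6, a cytokine best known from macrophages and stromal cells, and lies at chr5:30013114-30019981 on the plus strand. Its reads numbered 7, 1 and 0 at rest and 100, 38 and 21 after stimulation. The groups did not overlap, yet the stimulated libraries differed by 4.90 times, the widest spread among the 7 tested interleukins. Mean CPM rose from 0.0848 ± 0.1205 to 1.87 ± 1.48 (SD, n = 3), a log2 change of 4.40 (SE 0.95, edgeR adjusted p = 0.00323). The ratio of summed normalised reads was 22.0, with a 95% counting interval of 10.9 to 51.8. The fitted rise, 21.1-fold with all libraries, rests on single libraries. It was 93.6-fold without unstimulated replicate 1, 14.1-fold without unstimulated replicate 3 and 11.7-fold without stimulated replicate 1.

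Il16 went the other way. It lies at chr7:83642825-83745726 on the minus strand and was the most abundant of the 8 interleukins at rest, with 7020, 7371 and 7495 reads. After stimulation 1433, 1413 and 1457 reads were left. Libraries agreed closely: the highest exceeded the lowest by 1.05 times at rest and 1.02 times after stimulation, against medians of 1.20 and 1.17 over all tested genes. Mean CPM went from 230.6 ± 6.42 to 50.2 ± 0.591 (SD, n = 3), a log2 change of -2.20 (SE 0.063, edgeR adjusted p = 8.5e-09). In bulk RNA, fewer cells carrying a transcript and less of it per cell cannot be told apart, and the same holds for the rises.

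Restimulation changed the order of the interleukins by level. Per kilobase of annotated exon (CPM per kb), Il16 led the unstimulated cells at 29.3, with Il24 next at 0.940, followed by Il10 at 0.428 and Il21 at 0.294. Il17f at 0.0416 and Il6 at 0.0349 were near the limit of detection, and Il17a and Il22 were at 0. Neighbours in this order were separated without overlap of libraries at only 2 steps, between Il16 and Il24 and between Il21 and Il17f. After stimulation Il24 led at 97.4, Il10 was next at 19.5, and Il16 at 6.38 was level with Il21 at 6.30. Il17a at 2.01, Il17f at 1.20 and Il6 at 0.769 formed a low group in which the ranges of neighbours overlapped, and Il22 was at 0.0529. Compared within libraries, Il17f lay above Il6 in all 3 stimulated libraries and Il17a above Il17f in 2. Il24 and Il10, Il10 and Il16, Il21 and Il17a, and Il6 and Il22 did not overlap. With the longest protein-coding transcript as the length, an alternative added after seeing the data, Il21 at 10.8 stood above Il16 at 9.54, Il17f at 2.07 stood beside Il17a at 2.01, and Il10 and Il21 overlapped.

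The other ligands of these families were mostly near silence. Of the 8 genes listed for the interleukin 10 family, Il10 and Il24 were the ones tested, and both rose. Il19, which lies between them, had 10, 1 and 0 reads at rest and 23, 9 and 11 after stimulation, overlapping between groups, and Il20 had none in any library. Il19 did not pass the filter on low counts, but without unstimulated replicate 1 it was tested and called (edgeR adjusted p = 0.002). The interferon lambda genes Ifnl2 and Ifnl3 had 1 read each in all. In the interleukin 17 family of 6, Il17b and Il25 had no read, and Il17c and Il17d reached 0.210 and 0.280 CPM after stimulation and did not pass the filter on low counts. Without that filter Il17d was called as a rise (edgeR adjusted p = 0.00309), as it was by DESeq2 (0.0124). The interleukin 6 family of 11 had 5 tested genes, of which 3 rose and 2 were not called. Without the filter and with DESeq2 there were 5 rises, the added ones being Il11 (1, 0 and 1 reads at rest, 6, 12 and 3 after stimulation) and Il27 (3, 1 and 2, then 18, 8 and 6). Lif, leukaemia inhibitory factor, the most abundant of the family after stimulation but not at rest, went from 703, 160 and 177 reads to 46126, 32993 and 35618. In CPM Lif rose from 11.0 ± 9.85 to 1340 ± 258 (log2 change 6.93, edgeR adjusted p = 0.00044), with the same high resting replicate 1 as Il24. Osm, oncostatin M, rose from 26.3 ± 1.59 to 60.5 ± 5.29 CPM (log2 change 1.20), and Clcf1 (-0.04) and Ebi3 (0.27) did not pass.

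The tested receptor chains through which these cytokines act changed less on the log2 scale than the rising interleukins. Of 17 listed chains 11 were tested: 2 rose, 5 fell and 4 were not called, with a median log2 change of -0.39. The falls, 45.5% of those tested, are near the 39.1% over all tested genes, and the rises, 18.2%, stand beside 38.4%. Il6ra, the chain that binds interleukin 6, had 4626, 4693 and 3962 reads at rest and 680, 578 and 588 after stimulation, a fall from 140 ± 13.4 to 21.6 ± 2.21 CPM (log2 change -2.70, SE 0.10, edgeR adjusted p = 3.4e-08). Its signalling partner Il6st was not called, with 61.9 ± 6.31 and 64.7 ± 1.97 CPM. Il17ra, the shared chain for interleukins 17A and 17F, fell from 292 ± 9.25 to 47.5 ± 3.06 CPM (log2 change -2.62, SE 0.074, edgeR adjusted p = 8.2e-09). Its partner Il17rc had 0 reads at rest and 2, 4 and 4 after stimulation and did not pass the filter; without it, Il17rc was called as a rise (edgeR adjusted p = 0.0131, DESeq2 0.0413). The ligand transcripts Il6, Il17a and Il17f thus rose while Il6ra and Il17ra fell.

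For interleukin 10 the ligand-binding chain went up instead. Il10ra rose from 68.5 ± 1.25 to 142 ± 22.5 CPM (log2 change 1.05, edgeR adjusted p = 1.8e-05), while the shared chain Il10rb fell from 36.5 ± 1.43 to 25.8 ± 0.451 CPM (-0.50). Il21r was not called, at 168 ± 6.93 and 160 ± 8.53 CPM, although library size scaling alone gave it an edgeR adjusted p of 0.0147 with a log2 change of -0.21. Il2rg, the common gamma chain with which it pairs, rose from 269 ± 6.14 to 396 ± 16.9 CPM (0.56). Il20rb, a chain of the interleukin 24 receptors, was not called at 2.33 ± 0.585 and 2.41 ± 0.238 CPM, and Il20ra had at most 3 reads in any library. Il22ra1 and the soluble interleukin 22 binding protein Il22ra2 had no read. Cd4, the interleukin 16 receptor as well as the defining marker of these cells, fell with Il16, from 984 ± 40.2 to 333 ± 16.7 CPM (log2 change -1.56, edgeR adjusted p = 4.3e-08). Cd9, another reported interleukin 16 receptor, fell by 0.51 on the log2 scale. That call was lost without unstimulated replicate 3 (edgeR adjusted p = 0.0706) and without both libraries of replicate 2 (0.0616) or of replicate 3 (0.064).

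**Figure D3:**
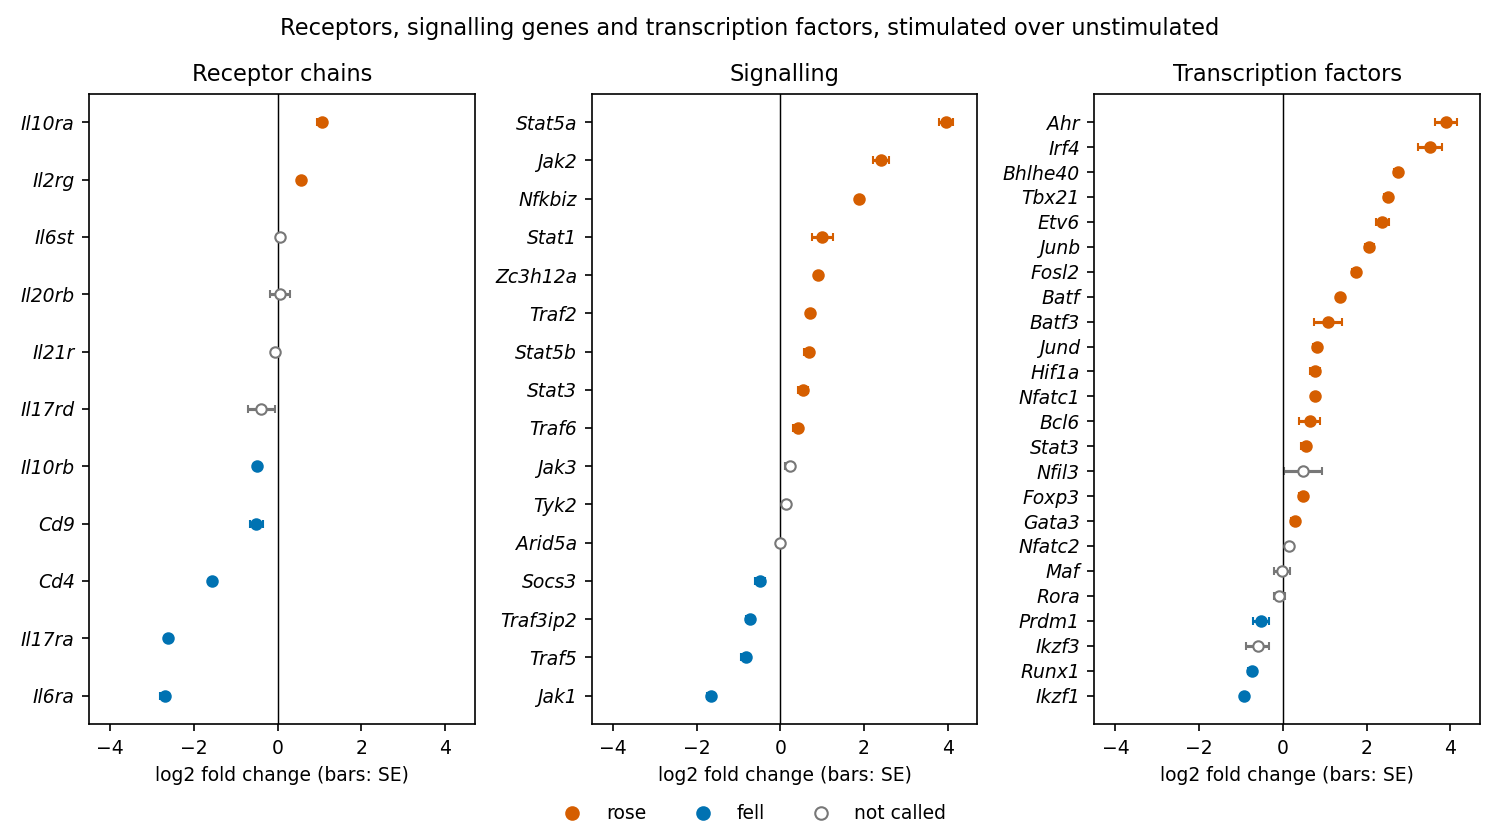
log2 fold change, stimulated over unstimulated, with bars for the SE, of receptor chains, JAK-STAT and interleukin 17 signalling genes, and transcription factors known at the interleukin loci, for the tested genes reported here. Filled points passed edgeR's test and open points did not. Il6ra and Il17ra lie lowest among the receptors at -2.70 and -2.62, Stat5a highest among the signalling genes at 3.96 and Ahr highest among the transcription factors at 3.88.

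Among 16 signalling genes downstream of these receptors, 9 rose (56.2%, beside 38.4% of all tested genes), 4 fell (25%, beside 39.1%) and 3 were not called, with a median log2 change of 0.48. Stat5a, a transducer of common gamma chain cytokines, rose from 63.3 ± 14.0 to 983 ± 45.9 CPM (log2 change 3.96, edgeR adjusted p = 1.3e-07). Nfkbiz, which encodes the IκBζ protein induced by interleukin 17, rose by 1.89 on the log2 scale, and Zc3h12a, the RNase Regnase-1 that degrades Il6 mRNA, by 0.90. Jak2 rose by 2.41, whereas Jak1, the kinase of the interleukin 6 and interleukin 10 receptors, fell from 712 ± 64.7 to 225 ± 12.9 CPM (log2 change -1.66, edgeR adjusted p = 1.5e-07). Traf3ip2, the Act1 adaptor of the interleukin 17 receptor, changed by -0.72 and Traf5 by -0.82, both called as falls. Stat3, the main transducer of interleukins 6, 10, 21 and 22, rose by 0.54. Socs3, its feedback inhibitor, fell by 0.48 on the log2 scale.

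Transcription factors known at the Il10, Il17, Il21 and Il22 loci rose more often than they fell: of 25, 17 rose (68.0%, beside 38.4% of all tested genes), 3 fell (12%, beside 39.1%) and 5 were not called, with a median log2 change of 0.76. Without both libraries of replicate 2 the rises numbered 13. Bhlhe40, known as a repressor of Il10 in T cells, rose from 54.6 ± 6.17 to 368 ± 21.4 CPM (log2 change 2.75, edgeR adjusted p = 2.1e-08). Tbx21, the Th1 factor T-bet, rose by 2.51 on the log2 scale and Batf, the AP-1 partner needed for Th17 cells, by 1.37. Irf4 rose from 125 ± 51.1 to 1413 ± 76.0 CPM (3.50) and Ahr, a ligand-sensing factor known at Il22, from 1.90 ± 0.869 to 28.1 ± 3.04 CPM (3.88). Maf, a known activator of Il10 and Il21, was not called and stood at 65.1 ± 9.74 and 64.0 ± 17.2 CPM. The falls were Ikzf1 (-0.92), Runx1 (-0.74) and Prdm1 (-0.52), and the call for Prdm1 was lost without any one unstimulated library and without stimulated replicate 2 or 3 (edgeR adjusted p from 0.0512 to 0.0923). Bcl6 rose by 0.64 with overlapping groups, and its call was lost with the replicate number as a block (edgeR adjusted p = 0.151) and without replicate 2 or 3 of either group (0.0818 to 0.162).

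Genes tied to the helper subsets that make these cytokines did not move as a block. Of 9 Th17-associated genes 6 were tested, of which 2 rose and 4 fell, where 38.4% and 39.1% of all tested genes did. Ccl20, a chemokine, went from 0, 2 and 1 reads to 28, 37 and 33 (log2 change 5.00, edgeR adjusted p = 2.4e-05), and its receptor Ccr6 from 41, 71 and 67 reads to 3, 5 and 5 (-3.60, edgeR adjusted p = 2e-05). Abcb1a fell by 0.73 on the log2 scale and Tmem176b by 0.94. The Tmem176b call was lost without unstimulated replicate 3 or stimulated replicate 1 or 2 (edgeR adjusted p from 0.0616 to 0.0969). That of Tmem176a (-0.92), whose groups overlap, was lost without the same libraries or unstimulated replicate 2 (0.0588 to 0.131). Il23r, the interleukin 23 receptor of Th17 cells, had 3 reads in replicate 3 of each group and 0 elsewhere. Of 8 genes tied to follicular helper cells 7 were tested: 5 rose (38.4% of all tested genes did), Sh2d1a fell by 1.06 on the log2 scale, and Cxcr5, the homing receptor of these cells, was not called at 4.40 ± 1.40 and 4.28 ± 0.202 CPM. The 3 rises with the smallest p were Icos (1.61), Pdcd1 (3.99) and Cd40lg (0.98). These 3 alone were left, with Bcl6 and Tox2 lost, without unstimulated replicate 2, unstimulated replicate 3 or stimulated replicate 3, and with library size scaling alone. Tox2 (1.08), whose groups overlap, also lost its call without stimulated replicate 1 (edgeR adjusted p = 0.131).

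The genes around the interleukins were called about as often as genes in general. Within 250 kb of a member lie 45 other protein-coding genes, of which 13 rose, 14 fell, 4 were not called and 14 did not pass the filter on low counts. The 31 tested ones rose in 41.9% and fell in 45.2% of cases, beside 38.4% and 39.1% over all tested genes. Beside Il24 and Il10, Mapkapk2, which encodes the kinase MK2 known to stabilise cytokine mRNAs, rose from 115 ± 1.80 to 421 ± 34.6 CPM (log2 change 1.87, edgeR adjusted p = 4.2e-08). Fcmr, whose end lies 1.28 kb from Il24, was not called at 2.30 ± 0.164 and 2.78 ± 0.773 CPM. Yod1 (-0.23) and Dyrk3 (0.01) were not called either, although Yod1 passed as a fall without unstimulated replicate 1 (edgeR adjusted p = 0.00794) and with library size scaling alone (0.0162). Pfkfb2 (-1.22), AA986860 (-1.65), Eif2d (-0.23), Rassf5 (-0.54) and Ikbke (-0.96) fell, and C4bp, Gm29427, Fcamr, Pigr, Il20 and Il19 were not tested. Of the tested genes around Il24 and Il10, Mapkapk2 was thus the only one to rise; without the filter Pigr was called as a rise too (edgeR adjusted p = 0.0048), at 0.0106 and 0.223 CPM.

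On the interleukin 17 side, Mcm3, a DNA replication helicase subunit lying 12.4 kb from Il17f, rose by 0.78 on the log2 scale. Further out, Paqr8 fell by 3.24 on the log2 scale and Tram2 by 0.98, and Pkhd1 had no read. Near Il22, the interferon gamma gene Ifng, 231 kb away, rose from 0.316 ± 0.115 to 67.8 ± 9.68 CPM (log2 change 7.72, edgeR adjusted p = 6.9e-09) while Il22 itself had 5 reads in all. Mdm1 fell by 2.45 on the log2 scale there, and Iltifb, a near copy of Il22 in some strains, had 1 read. Since reads of near-identical copies can be split or dropped in counting, the Il22 and Iltifb counts are uncertain.

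Near Il21, Il2 at a distance of 96.8 kb rose from 0.475 ± 0.117 to 251 ± 54.0 CPM (log2 change 9.04, edgeR adjusted p = 1.1e-08), and Spata5 (2.93), Fgf2 (1.63), Cetn4 (1.19) and Bbs12 (0.67) rose too. There 4932438A13Rik fell (-0.90), Nudt6 was not called (-0.32, but edgeR adjusted p = 0.0493 with the replicate block, 0.0405 without stimulated replicate 3 and 0.0256 with library size scaling alone), and Adad1 was not tested. Around Il6, Garem2 (3.85), Selenoi (1.62) and Dnajb6 (0.41) rose, Hadhb (-2.01), Tyms (-1.27) and Hadha (-0.92) fell, and 3110082J24Rik and Adgrf3 were not tested. Around Il16, Mesd (0.79) and Tlnrd1 (0.35) rose, the latter not with library size scaling alone (edgeR adjusted p = 0.0615). Tmc3, Cfap161 and Cemip were not tested.

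Stard5 overlaps Il16 on the opposite strand and had 11.7 ± 0.721 and 9.53 ± 0.470 CPM (log2 change -0.29, edgeR adjusted p = 0.0274), a call lost without replicate 1 or 2 of either group (0.0503 to 0.105). Because the strand setting of the counting is not given, reads from the overlap cannot be assigned to either gene, and their part in the Il16 counts was not tested. The antisense genes Gm12534 at Il21 and 2310044K18Rik at Il16 had 0 reads and at most 7 reads per library.

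**Figure D4:**
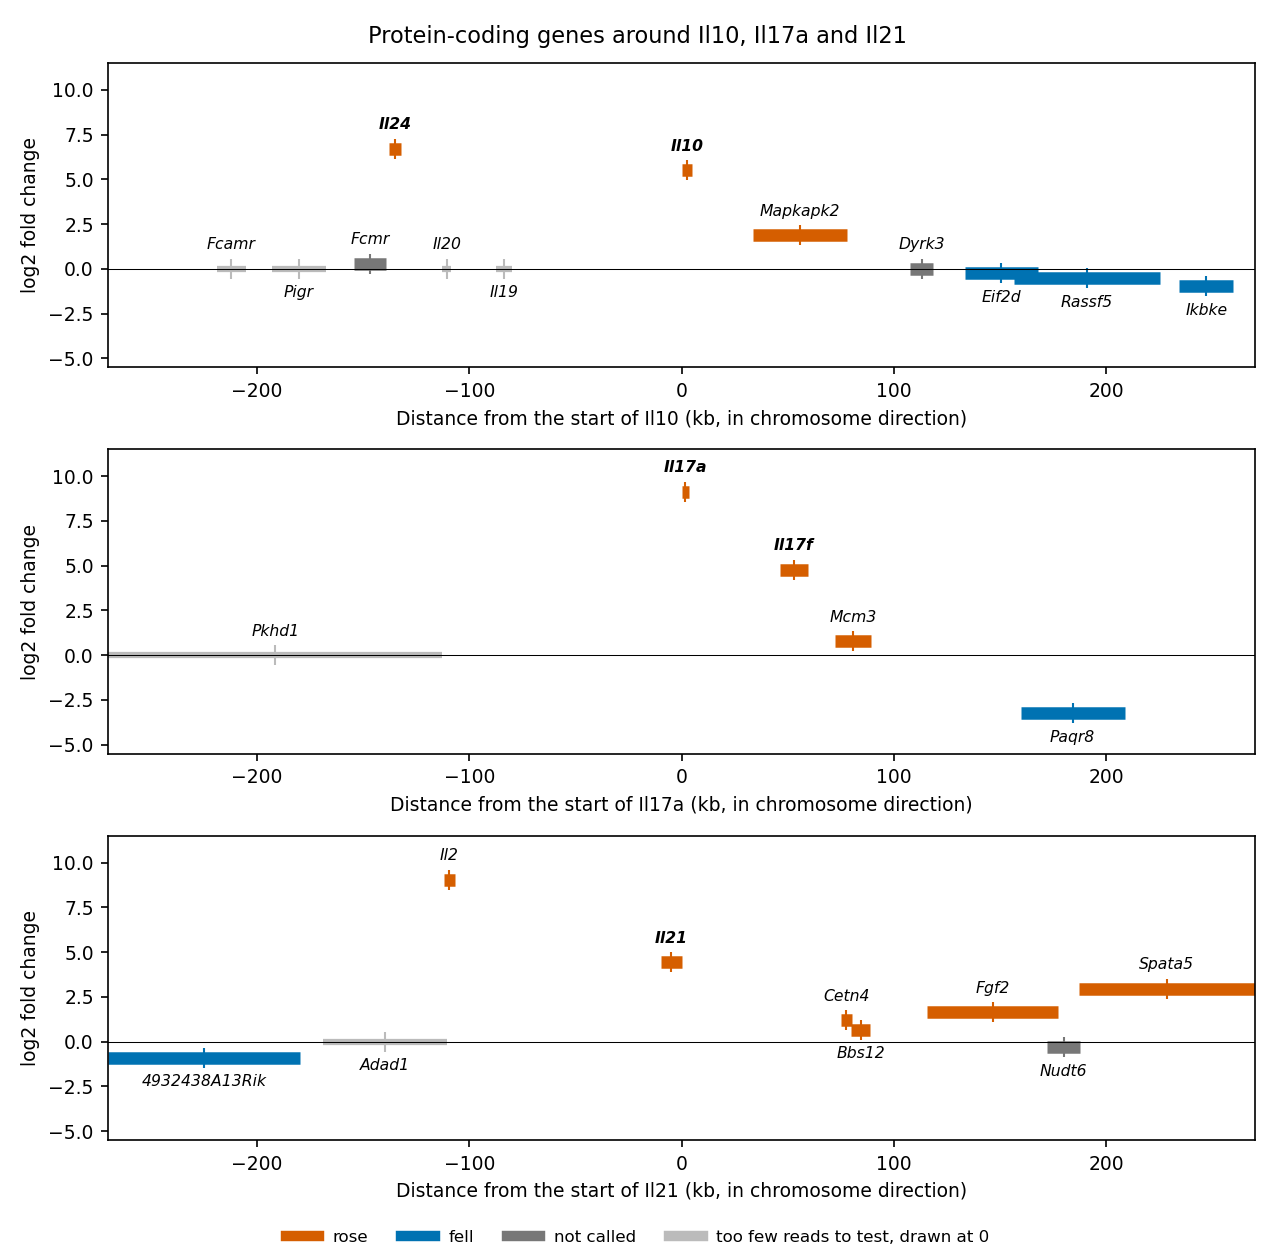
log2 fold change, stimulated over unstimulated, of the protein-coding genes reported here near Il10, Il17a and Il21 (interleukins studied here in bold), drawn from gene start to gene end by distance in kb from the start of the named interleukin; genes reaching past the window are drawn to its edge. Il24 and Il10 stand at 6.70 and 5.51 among genes between -0.96 and 1.87, Il17a and Il17f at 9.15 and 4.78 among genes between -3.24 and 0.78, and Il21 at 4.42 with Il2 at 9.04.

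The transcripts most like each interleukin across the 6 libraries were sought among 10447 protein-coding genes averaging at least 1 CPM, by the root mean square difference of centred log2(CPM + 0.5) values. These 6 values share libraries and depth, and a small difference reflects the group step and the replicate 1 pattern alike. For Il24 they were Lif (0.46), Egr2 (0.59) and Dusp4 (0.60). Il10 was nearest to Pdcd1lg2 (0.23), Ifi44 (0.32) and Zbtb32 (0.34), and Il21 to Rgs1 (0.18), Egr3 (0.21) and Zbtb32 (0.23). All of these had their highest resting value in unstimulated replicate 1. Il17a was nearest to Dhx58 (0.18), Slfn4 (0.20) and Tdrd7 (0.20), Il17f to Areg (0.12), Ifi35 (0.14) and Map1b (0.14), and Il6 to Itgax (0.18), Mmp10 (0.22) and Cth (0.26). The added 0.5 CPM shrinks the changes of genes near that level, so these matches are not matches in fitted change. Beside 9.15 for Il17a, Dhx58 had a log2 change of 2.47, Slfn4 3.84 and Tdrd7 2.82. Beside 4.78 for Il17f, Areg had 7.23, Ifi35 2.42 and Map1b 3.95. Il16 had the closest companions, Ano10 (0.03), Stk17b (0.04) and Dennd1c (0.04), which fell by 2.23, 2.24 and 2.17 on the log2 scale. Among the interleukins themselves Il17a and Il17f were nearest to each other (0.34), and Il24 and Il10, although neighbours on the chromosome, differed by 1.07. These differences too depend on level through the added 0.5 CPM.

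Markers of other cells were read beside these values, since several of the interleukins are also made by other cells. All 9 markers of CD4+ T cells were present and fell, with a summed level of 4541 to 4811 CPM at rest and 2183 to 2229 after stimulation. Of 10 macrophage and monocyte markers, whose best represented member was Itgam, 6 were below 1 CPM in every library. The sum of the 10 lay between 6.63 and 8.46 CPM at rest and between 3.03 and 4.04 after stimulation. In the dendritic cell list of 7, Clec9a and Siglech had 0 reads, while Batf3, Itgax, Zbtb46 and Xcr1 rose and Flt3 fell, the sum going from 8.08–19.5 to 27.3–35.5 CPM. Most of this sum was Batf3, at 11.1 ± 5.45 CPM at rest and 23.5 ± 3.68 CPM after stimulation. Batf3 is also on the list of transcription factors known at the interleukin loci. The calls of Batf3 (without unstimulated replicate 2 or stimulated replicate 1), Xcr1 (without unstimulated replicate 3 or stimulated replicate 2 or 3) and Flt3 (without unstimulated replicate 1 or stimulated replicate 1 or 3) were lost with edgeR adjusted p from 0.0503 to 0.108. Itgax had the same order of the stimulated libraries as Il6 (106, 37 and 34 reads), an order that Il24, Il10 and Il17f shared. The part of dendritic cells in the Il6 rise was not tested. Of 6 neutrophil markers S100a8, Retnlg and Csf3r had 0 reads and Mmp9 was the most abundant, with a sum of at most 1.11 CPM. Of 7 mast cell and basophil markers Mcpt8, Prss34 and Mcpt4 had 0 reads and Cpa3 was the most abundant, with a sum of at most 1.05 CPM.

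For the interleukin 17 genes the gamma-delta T cell list is the nearest alternative source. Of its 6 genes 3 were matched to the table, led by Trdc, and their sum fell from between 8.18 and 11.3 CPM to between 4.18 and 5.82 CPM. Natural killer and innate lymphoid markers summed to 705–803 and 139–224 CPM, and 4 of these 9 were below 1 CPM in every library. At rest nearly all of the sum was Il7r, which resting T cells also express and which fell from 742 ± 46.6 to 76.4 ± 11.7 CPM. Eomes, a factor of natural killer and cytotoxic T cells, had 616, 88 and 54 reads at rest and 3151, 1657 and 2260 after stimulation. Its mean rose from 8.03 to 82.6 CPM (log2 change 3.36, edgeR adjusted p = 0.0215). That call was lost without unstimulated replicate 3 (0.0533) or stimulated replicate 1 (0.0831), and without the filter on low counts (0.0622). B cell markers, mostly Ighm, summed to 1403–2859 and 730–1281 CPM, and the 2 CD8 T cell markers, led by Cd8b1, to 20.9–24.8 and 20.7–25.8 CPM. Within that level CD8 sum, Cd8a rose from 3.83 ± 0.328 to 8.22 ± 0.424 CPM (log2 change 1.10, edgeR adjusted p = 5.3e-05). Cd8b1 fell from 18.6 ± 1.80 to 14.7 ± 2.21 CPM (-0.33, edgeR adjusted p = 0.0358). The Cd8b1 call was lost without unstimulated replicate 2 (0.136) or stimulated replicate 2 (0.113) or 3 (0.131). Stromal markers summed to 177–196 and 47.0–60.4 CPM, with 3 of 7, Cdh5, Pdgfra and Pdpn, below 1 CPM in every library. Nearly all of the sum was Pecam1 alone, at 186 ± 10.3 CPM at rest and 49.9 ± 5.99 CPM after stimulation. The fall was that of Pecam1, whereas Col1a1 rose from 0.821 ± 0.254 to 1.79 ± 0.692 CPM (log2 change 1.12, edgeR adjusted p = 0.0175), a call lost without unstimulated replicate 2 (0.0592) or stimulated replicate 1 (0.0734). Col1a2 had 4, 5 and 18 reads at rest and 30, 19 and 2 after stimulation, and Col3a1 1, 0 and 11 and then 34, 30 and 0. Neither collagen passed the test with all libraries, but both did without stimulated replicate 3. In the stimulated libraries all 3 collagens had the order of Il6, replicate 1 above 2 above 3, which Il24, Il10 and Il17f shared. How much any of these cells contributed to the interleukin counts was not tested.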

How the data were processed

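Per the labels, total RNA was prepared with a TruSeq RNA kit. The authors deposited raw counts of reads per Ensembl gene, 1 column for each of 6 libraries. STAR 2.5.2a, HTSeq, DESeq2 and GRCm38 are named per the submitters' processing notes, without their roles. No source used here gives the annotation release or the strand setting. Of 48440 genes, 26036 had no read. GENCODE M21 matched 48058 identifiers and left 382 unnamed.

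edgeR 4.0.16 (R 4.3.3) was run on the counts of all genes with TMM scaling, filterByExpr, robust dispersions and the two-sided quasi-likelihood test for group, without a replicate term, Benjamini-Hochberg adjustment over 13314 genes and a threshold of 0.05. SE is the log2 change divided by the root of F. CPM used TMM-scaled totals. The fit was also run on simulated counts in which few genes changed and replicates were not paired. That run does not show how the fit performs on these data, in which most genes moved. Alternatives were DESeq2 1.42.0, limma-voom 3.58.1, other scalings and filters, glmTreat, a threshold of 0.01, a replicate block and leaving out libraries.

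The labels call the 3 libraries per group biological replicates but name no separate mice or cultures, so p-values reflect only how these libraries varied, perhaps for technical reasons. No pair within a group agreed within counting noise. Over 11586 genes, deviations from the group means of libraries sharing a replicate number correlated with r of 0.493, 0.171 and 0.531. The numbers were therefore taken to pair the libraries, though weakly for replicate 2. The main fit does not use this pairing, and the replicate block does. Intervals are exact at 95% and, like the floor of 3 reads, cover counting error only. The genes and lists were chosen with earlier results of these data known. Named were the 8 genes, all protein-coding genes within 250 kb, up to 3 called genes per direction and list with the smallest p (marker lists: the most abundant), and the 3 most similar transcripts; other list genes named were chosen after their values were seen. Some genes under this rule are not reported here by name, but are included in the counts.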

Additional observations from a re-analysis of the deposited data

How the results depend on the processing

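All 118 values of the 7 tested interleukins under the alternatives kept their direction and their call; with a filter of 1 CPM in 3 libraries Il6 was not tested, which left 6 called. The highest adjusted p over the alternatives was 0.0264 for Il6 and 0.0177 for Il24, and at most 0.00645 for the others. Fitted folds ran from 70.2 to 561 for Il24, 32.0 to 99.8 for Il10, 16.3 to 38.8 for Il21, 11.7 to 93.6 for Il6, 20.8 to 40.6 for Il17f and, downward, 4.51 to 5.06 for Il16. That of Il17a, which depends on how 0 reads are handled, ran from 135.5 with limma-voom to 723.6. With the replicate number as a block (replicate block), 7 interleukins and 10842 genes were called, against 7 and 10320 without it, and no call among the interleukins changed. With the block the edgeR adjusted p was larger for Il24 (0.00364) and Il21 (0.00141) and smaller for the other tested interleukins. Among the other genes named, the block lost Bcl6 and gained Ebi3 (edgeR adjusted p = 0.00941), Jak3 (0.0176) and Nudt6 (0.0493). glmTreat called 4741 genes, since it tests for a larger change. Of 67 other family, receptor, signalling and factor genes tested, 52 were called, 42 to 55 under the alternatives, fewest without replicate 2. Library size scaling alone moved the median log2 change of all tested genes by -0.14, and the interleukins kept their directions relative to it. Jak3 and Nfil3 passed as rises without unstimulated replicate 1 (adjusted p = 0.00438 and 5.93e-05). Depth limits Il22 in both groups and Il17a, Il17f and Il6 at rest. The Il22 counts are also uncertain because of the near copy Iltifb.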
